A study of Mus musculus with 6 samples.

Results

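The tumour suppressor p53, encoded by *Trp53*, and 9 of its established direct target genes were examined for their RNA level in mouse embryonic fibroblasts (MEFs), the primary fibroblasts grown from mouse embryos. The 10 members were *Trp53*, *Mdm2*, *Ccng1*, *Trp53inp1*, *Bax*, *Bbc3*, *Sesn2*, *Phlda3*, *Zmat3* and *Aen*, taken by name from the 25043 genes of the expression table, and all 10 were found. Each gene was represented by the RefSeq transcript with its highest mean, of 16 transcripts that the members have among 42361 in all. The series holds RNA-Seq of 3 libraries of WT MEFs and 3 libraries of *Anp32e*-/- MEFs, labelled null for the gene of the H2A.Z chaperone ANP32E, without any treatment named and at passages below 8. Both kinds of cells were donated to the study as primary MEFs from embryos of the respective genotype, the 3 libraries of a group are described as biological replicates in culture, and the number, age and strain of the embryos are not given in the sources used here. The values analysed are the authors' means over all 6 libraries, in which WT and *Anp32e*-/- MEFs are pooled. The levels below therefore describe the 2 genotypes together, no SD between replicates accompanies them, and no comparison of *Anp32e*-/- with WT MEFs was made.

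p53 is a transcription factor that is held at a low protein level in unstressed cells and accumulates after DNA damage, oncogene activation or ribosomal stress. It binds DNA as a tetramer at paired decamer sequences and activates genes of cell cycle arrest, apoptosis, repair and metabolism. MDM2, itself a product of a p53 target gene, marks p53 for degradation and closes a negative feedback loop. Because p53 is regulated largely through the stability of its protein, its RNA level does not measure its activity. Fibroblasts from mouse embryos have long been used to study the p53 response, which limits their growth in culture.

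The DNA element through which p53 acts was looked for first, to show what the promoters of the members look like. RefSeq promoter windows of GRCm38.p6, with 250 bases before and 50 bases from the transcript start, were found for 8 members in 11 windows, and none for *Trp53inp1* and *Zmat3*. The p53 consensus decamer, a sequence of 10 bases, has 3 purines, C, 2 bases that are A or T, G and 3 pyrimidines, and reads the same on both strands. An exact decamer was present in the windows of 5 of the 8 members, against 9.55% of all 27025 genes with such a window. These sites are shown with 10 bases on either side, 5′ to 3′ on the strand of the gene, with the decamer in capitals.
*Trp53*, at chr11:69580284-69580293: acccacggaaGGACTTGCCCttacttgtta
*Mdm2*, at chr10:117710935-117710944: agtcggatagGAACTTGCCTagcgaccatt
*Ccng1*, at chr11:40755462-40755471: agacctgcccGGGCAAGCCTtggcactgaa
*Bax*, at chr7:45467090-45467099: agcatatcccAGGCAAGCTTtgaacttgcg
*Aen*, at chr7:78895937-78895946: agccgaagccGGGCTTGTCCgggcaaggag

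The windows of *Ccng1* and *Bax* also held a second decamer close by. A pair was counted where at most 13 bases separated the decamers, C and G were kept in each core, and at most 2 other bases departed from the consensus. Such pairs were found for 2 of the 8 members and for 4.71% of all genes with a window. In *Ccng1* the decamers of the closest pair were adjoining, with 1 departure, and the pair began 195 bases before the transcript start. In *Bax* 1 base lay between those of the closest pair, with 2 departures, and the pair began 201 bases before the start. Adjoining pairs of this kind occurred in 107 of 32851 windows, or 0.326%. Each window also held an overlapping pair with 5 bases between the decamers and 2 departures, beginning 200 bases before the start in *Ccng1* and 216 bases before it in *Bax*. In both sequences shown, which are the pairs with fewest bases between, the decamers are in capitals and any base between them is in lower case.
*Ccng1*, at chr11:40755462-40755481: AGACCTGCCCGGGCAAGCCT
*Bax*, at chr7:45467079-45467099: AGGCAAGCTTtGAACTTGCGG
No exact decamer lay in the windows of *Phlda3*, *Sesn2* and *Bbc3*. These matches are descriptions of letters near the annotated starts, introns and more distant elements were not searched, and genes named as direct targets were in part chosen in the literature for such sites.

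RNA of every member was found well above the lowest levels. The mean ranged from 676 normalized counts for *Bbc3* to 18561 for *Ccng1*, a 27.5-fold range, with a median of 3818. Of the 10 members, 9 lay above the median of 1029 normalized counts over the 14246 genes with a mean of at least 10, and *Bbc3* lay below it. Together the members took 0.121% of the counts summed over genes. Normalized counts are reads divided by a size factor of each library, so long transcripts collect more of them, and levels of different genes are set against each other below after division by the length of the transcript in kilobases (kb). Per kb, 8 of the 10 members lay above the median gene, which had 351 normalized counts per kb, and 5 were above 1116, the level that 25% of genes exceeded. The median member had 1016 normalized counts per kb. Any interval given here covers counting error alone, since the spread between libraries is not known, and in bulk RNA fewer cells with a transcript cannot be told apart from less of it per cell.

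**Figure D1:**
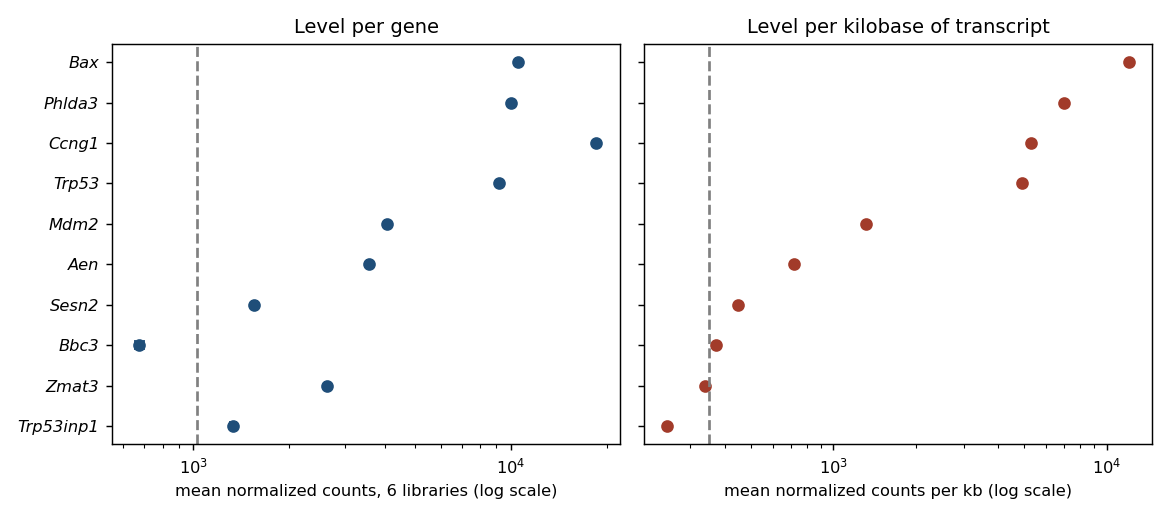
Levels of *Trp53* and 9 targets as mean normalized counts over 6 libraries (left, bars for 95% counting intervals, mostly smaller than the points) and per kb of transcript (right), both on log axes, with genes in the order of their level per kb and a dashed line at the median gene. *Ccng1* is highest by counts with 18561, while *Bax* is highest per kb with 12097 and *Trp53inp1* lowest with 247.

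The gene of the transcription factor itself was abundant. *Trp53* has 11 exons on the plus strand of chromosome 11, between positions 69580359 and 69591872 of the build GRCm38, where the positions given here are those of the matched GENCODE transcripts. Its mean over the 6 libraries was 9149 normalized counts (95% counting interval 9072 to 9225), or 4900 per kb, at percentile 94.0 of genes per kb. The table lists *Trp53* under 2 transcripts, whose means of 9149 and 9143 normalized counts differed by 5.96. Their GENCODE counterparts share 1771 exon bases, and the longer has 96 more. Nearly equal values on transcripts that share most of their exons show that a read was counted on each transcript it overlapped, so these values are no measure of the splice forms.

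Genes of the feedback on p53 were also well expressed. *Mdm2*, encoding the ubiquitin ligase that degrades p53, lies on chromosome 10 from 117688875 to 117710758 on the minus strand with 12 exons. It had a mean of 4073 normalized counts (95% counting interval 4022 to 4124) and 1314 per kb, so that *Trp53* RNA was 3.73 times as high per kb. *Mdm4*, encoding the MDM2 partner that inhibits p53, had 359 normalized counts per kb, and *Mdm2* exceeded it by 3.66 times. *Ccng1* encodes cyclin G1, which recruits a phosphatase to MDM2. It lies on chromosome 11 from 40748552 to 40755311 on the minus strand with 6 exons. Its 18561 normalized counts (95% counting interval 18452 to 18671) were the most of any member, and with 5285 per kb it ranked at place 3 by this measure. The related *Ccng2* had 290 normalized counts per kb, and *Ccng1* was 18.2 times as high.

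The apoptosis targets *Bax* and *Bbc3* lay far apart. *Bax*, encoding a pore-forming protein of the mitochondrial outer membrane, lies on chromosome 7 from 45461697 to 45466898 on the minus strand with 6 exons. It had 10488 normalized counts (95% counting interval 10407 to 10570) on a transcript of only 867 bases, which gave it 12097 per kb, the highest of the members and percentile 97.6 of genes. In GENCODE, 192 of its exon bases are also part of the gene model *Gm45808* on the same strand, and reads there cannot be assigned to either. *Bbc3*, encoding the BH3-only protein PUMA that triggers BAX, lies on chromosome 7 from 16309616 to 16318205 on the plus strand with 4 exons. Its 676 normalized counts (95% counting interval 656 to 697) were the fewest of the members. Per kb it had 373, so that *Bax* was 32.5 times as high. With the same counts over the whole transcript divided by the length of the coding sequence alone, *Bax* had 18209 per kb and *Bbc3* 1168.

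Other genes of the BCL2 family set these values in context. *Bak1*, the other main pore former, had 4259 normalized counts per kb, and *Bax* was 2.84 times as high. Among the genes of protective proteins, *Bcl2l1* had 3338 and *Mcl1* 3011 per kb, while *Bcl2* had 60.2. Per kb, *Bax* was thus 3.62 times as high as *Bcl2l1* and 201 times as high as *Bcl2*. The latter ratio rests in part on length, since *Bcl2* had 433 normalized counts on a transcript of 7191 bases. Of the BH3-only triggers, *Bbc3* lay between *Pmaip1*, encoding NOXA, with 685 normalized counts per kb and *Bcl2l11*, encoding BIM, with 101. *Bid*, a further BH3-only gene, had 1350.

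*Phlda3*, encoding a pleckstrin homology domain protein that keeps AKT from the membrane, lies on chromosome 1 from 135766119 to 135769136 on the plus strand with 2 exons. It had 10030 normalized counts (95% counting interval 9950 to 10111) and 6990 per kb, second among the members and percentile 95.8 of genes. Its family was unevenly expressed, with 836 normalized counts per kb for *Phlda1* and 29.6 for *Phlda2*, an imprinted gene active mainly in the placenta. *Phlda3* was 8.36 times as high as *Phlda1* and 236 times as high as *Phlda2*.

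The members that act in metabolic stress and autophagy had middling to low levels. *Sesn2*, encoding a sestrin that restrains mTORC1, lies on chromosome 4 from 132492032 to 132510501 on the minus strand with 10 exons, and had 1557 normalized counts (95% counting interval 1525 to 1589). Per kb its 448 normalized counts exceeded those of *Sesn1*, another sestrin gene activated by p53, with 152, and of *Sesn3*, with 35.0. *Sesn2* was 2.95 times as high as *Sesn1* and 12.8 times as high as *Sesn3*. *Trp53inp1*, encoding a nuclear protein that also promotes autophagy, lies on chromosome 4 from 11156431 to 11174379 on the plus strand with 4 exons. Its mean was 1334 normalized counts (95% counting interval 1305 to 1364) on 5404 bases, and with 247 per kb it was the lowest member, at percentile 42.6 of genes. Its relative *Trp53inp2* had 400.4 normalized counts per kb, 1.62 times as many. The table lists *Trp53inp1* under 2 transcripts, which differed by 1.57 normalized counts.

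*Zmat3*, encoding a zinc finger protein that binds RNA and takes part in splicing and mRNA decay, lies on chromosome 3 from 32334792 to 32365678 on the minus strand with 6 exons. It had 2636 normalized counts (95% counting interval 2595 to 2677) spread over the longest transcript of the set, with 7797 bases, and 338 per kb, at percentile 49.2. Its relative *Zmat1* had 23.2 normalized counts per kb, and *Zmat3* was 14.6 times as high. By counts *Zmat3* stood at percentile 72.0 of genes with a mean of at least 10, so its place among genes fell when its length was taken into account.

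*Aen*, encoding an exonuclease that fragments DNA during apoptosis, lies on chromosome 7 from 78895927 to 78911209 on the plus strand. Its highest transcript had 3564 normalized counts (95% counting interval 3516 to 3612). This transcript has no counterpart in GENCODE, and the next, with 3555 normalized counts and 4956 bases in 4 exons, gave a level of 717 per kb. A shorter coding transcript of 2007 bases had 3510 normalized counts, 44.9 or 1.26% fewer than the long form. Between their GENCODE counterparts, 2949 bases are found only in the long form, 59.5% of its length. Of these bases, 2828 lie beyond the 3′ end of the short form. With the length of the short form the level was 1749 per kb, 2.44 times that with the length of the long form. A noncoding transcript of the gene, which in GENCODE lacks 601 bases or 12.1% of the long form, had 2709 normalized counts, 23.8% fewer than the long form. Counts were made on RefSeq transcripts, whose exons were not examined, so where along *Aen* the reads lie was not established. The gene moves from below to above *Mdm2* in level per kb when the short form sets the length.

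**Figure D2:**
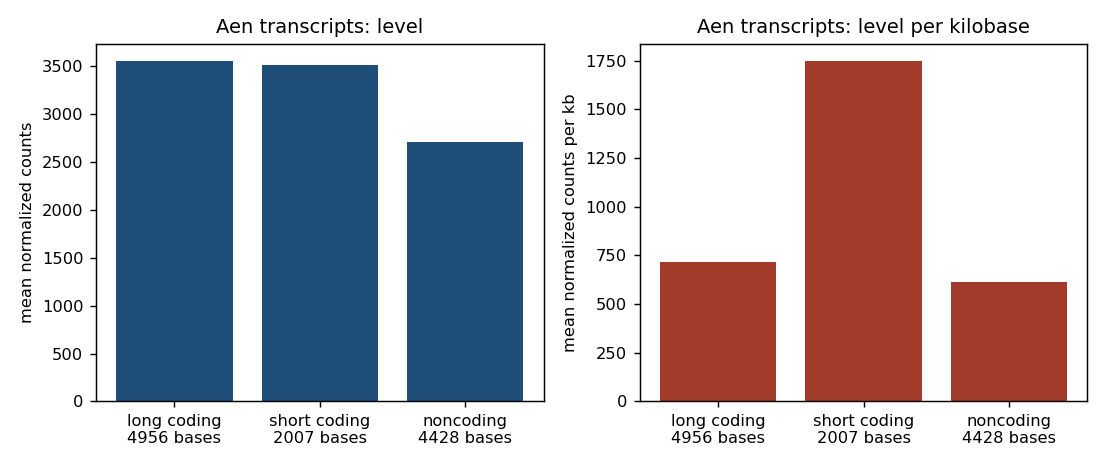
Means of 3 *Aen* transcripts over the 6 libraries, as normalized counts (left) and per kb of transcript (right), with bars from 0 and no error since values per library were not analysed. The long and the short coding forms have almost the same counts, 3555 and 3510, but 717 and 1749 per kb. Lengths are those of the GENCODE counterparts of the counted RefSeq transcripts.

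The order of the members per kb was *Bax*, *Phlda3*, *Ccng1*, *Trp53*, *Mdm2*, *Aen*, *Sesn2*, *Bbc3*, *Zmat3* and *Trp53inp1*. The first 4 were all above 3003 normalized counts per kb, the level that 10% of genes exceeded, and a gap of 3.73 times separated *Trp53* from *Mdm2*. This order depends on the length used. When its short form set the length, *Aen* had 1749 per kb and lay between *Trp53* and *Mdm2*. Dividing the same counts over whole transcripts by coding length alone put *Phlda3* first with 26747, before *Ccng1* with 21044 and *Bax* with 18209. By that measure *Zmat3*, with 870 coding bases of 7797, rose from place 9 to place 6. *Sesn2* rather than *Trp53inp1* came last with 1081. Such values count reads of untranslated parts too, so they are no level of the coding sequence. Per kb of whole transcript, from the top to the bottom of the order the levels spanned 49.0 times. Neighbours were closer elsewhere, with a ratio of 1.08 between *Ccng1* and *Trp53* and of 1.10 between *Bbc3* and *Zmat3*. The 95% counting interval was at most 3.09% of the mean to either side, for *Bbc3*, which is less than the gap between any neighbours. Whether neighbours differ beyond the spread between libraries could not be tested.

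**Figure D3:**
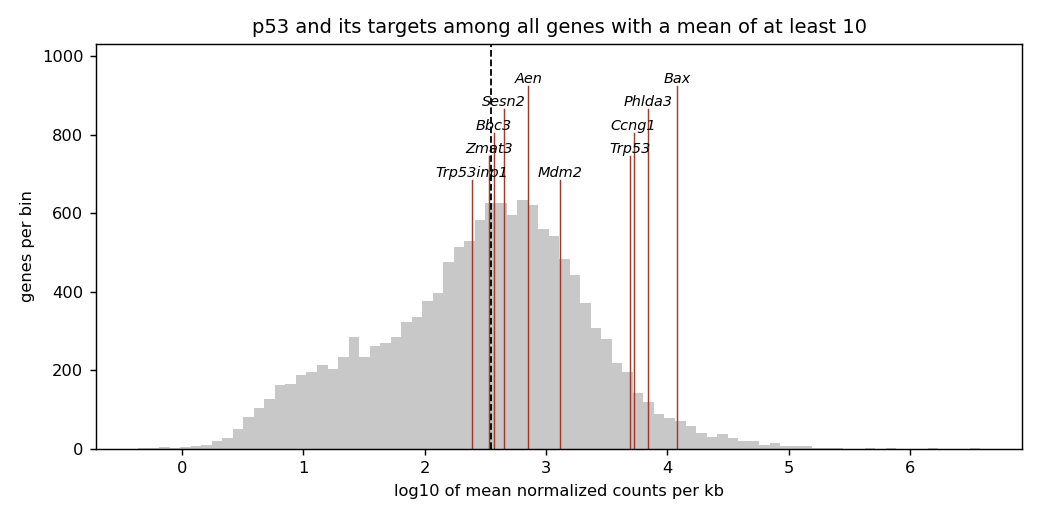
Distribution of mean normalized counts per kb (log10 on the x axis, number of genes per bin on the y axis) over 13978 genes with a mean of at least 10 and a level per kb above 0, with a red line for each of the 10 members and a dashed line at the median of 351. *Bax*, *Phlda3*, *Ccng1* and *Trp53* lie in the upper tail, and *Zmat3* and *Trp53inp1* lie below the median.

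Other genes of the p53 pathway were examined by role, with 52 genes on the list. Of these, 50 had a mean of at least 10, against 14246 of all 25043 genes. Of the 33 further target genes, 18 lay above the median gene per kb, and their own median was 373 normalized counts per kb. The corresponding median over the 9 target genes among the members was 717, which is the value of *Aen* on its long form, and 1314 with the short form of *Aen*. Among genes of arrest and repair, *Cdkn1a*, encoding the CDK inhibitor p21 and the best known p53 target, was highest with 4528 normalized counts per kb, a level close to that of *Trp53*. It was followed by *Plk2* with 2833 and *Gtse1* with 2318. The lowest were *Rrm2b*, encoding a ribonucleotide reductase subunit, with 93.4, *Sfn* with 160 and *Xpc*, a damage sensor of nucleotide excision repair, with 198.

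Among apoptosis targets, *Siva1* with 4959 normalized counts per kb, *Ei24* with 3004 and *Perp* with 1703 were highest. *Dram1* with 121, the death receptor gene *Fas* with 206 and *Pidd1* with 228 were lowest. None of the 12 reached the level of *Bax*. Metabolic and stress targets ranged from 75.1 normalized counts per kb for *Gls2*, a glutaminase gene, to 18663 for *Gpx1*, encoding a glutathione peroxidase, which was the only further target above *Bax*. *Sco2* with 2425 and *Fuca1* with 1442 followed *Gpx1*, while *Pank1* with 78.3 and *Lpin1* with 136 stood near *Gls2*.

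Upstream regulators showed the broadest range. *Rpl11* with 56897 and *Rpl5* with 8917 normalized counts per kb encode ribosomal proteins that bind MDM2, and reads of such genes can be shared with their processed copies. *Cdkn2a*, which encodes the MDM2 inhibitor ARF and the CDK inhibitor p16 from overlapping exons, had 9569 per kb on its highest transcript. This value does not tell its products apart, and its other transcripts were not examined. The kinase genes *Atr* and *Atm* had 108 and 183 normalized counts per kb, and the coactivator gene *Ep300* had 184. The p53 relatives *Trp63* and *Trp73* were almost silent, with means of 4.35 and 1.75 normalized counts against 9149 for *Trp53*. Among the 12 relatives chosen for the members, all had a mean of at least 10, and 5 lay above the median gene per kb. *Isg20*, a relative of *Aen*, had 138 normalized counts per kb, and *Aen* was 5.20 times as high.

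**Figure D4:**
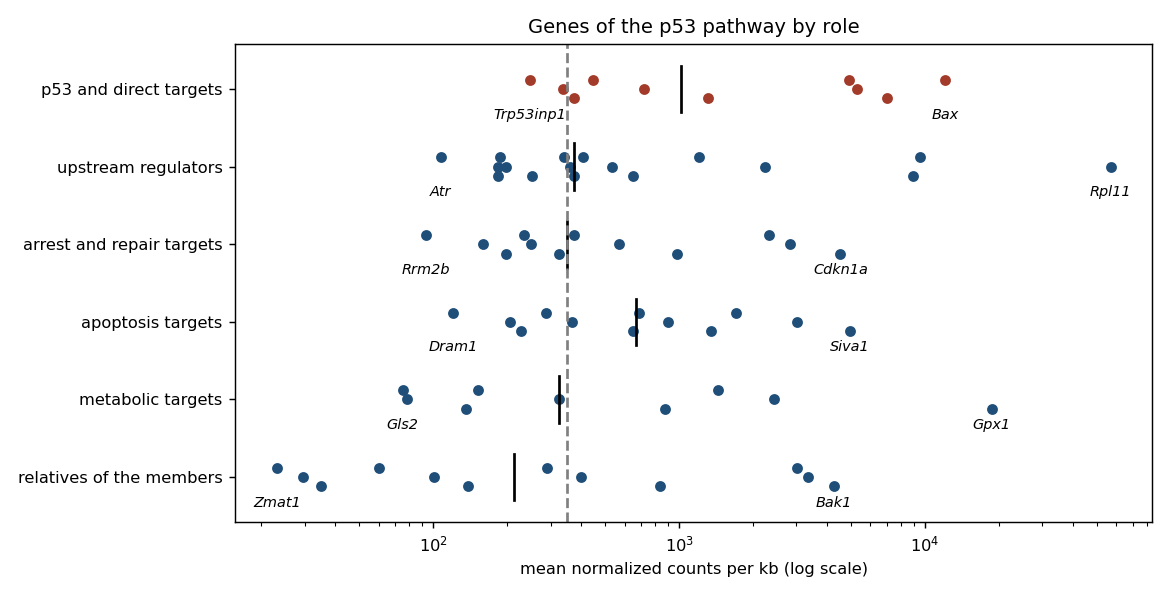
Mean normalized counts per kb (log axis) of 10 members, 50 other genes of the pathway and 12 relatives of the members, each with a mean of at least 10, in rows by role, with a black tick at the median of each row and a dashed line at the median gene. The lowest and highest gene of each row are named, and the members reach from 247 for *Trp53inp1* to 12097 for *Bax*.

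Facts of the libraries bear on all of these values. The size factors that 1 read implies in the lowest means were 6 in number, between 0.909 and 1.13. The libraries thus differed by 1.24 times in the factor used to scale them, and their read totals are not among the values analysed. The means summed over genes to 51227465 normalized counts. *Anp32e*, the targeted gene, had a mean of 2190 normalized counts over the 6 libraries, which does not separate the genotypes and so does not check the labels. The study itself reports from its RNA-Seq that the coding sequence of *Anp32e* is deleted in the null cells. Of 10 fibroblast markers, 9 had a mean of at least 10, as had 14246 of all 25043 genes. Of these 9, 7 lay above the median gene per kb, with *Vim* highest at 150796. *Pdgfra* with 91.9 and *Dcn* with 81.8 per kb lay below it, and *Lum* had 1.33 normalized counts. Markers of other cells were mixed. Of the endothelial list, *Pecam1* and *Cdh5* had 4.47 and 3.54 normalized counts but *Kdr* had 2958. Of the epithelial list, *Epcam* had 5.12 but *Krt18* had 1106, and of the macrophage list *Ptprc* had 3.09 but *Cd68* had 257. The 4 neural crest and glial markers had at most 26.6 normalized counts and the 4 muscle markers at most 67.6, with *Myod1* at 0. All 5 mesothelial markers had a mean of at least 10, from 97.2 per kb for *Wt1* to 4696 for *Krt19*. Their part in the levels of the p53 targets was not tested.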

How the data were processed

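RNA-Seq of 3 WT and 3 *Anp32e*-/- MEF libraries was examined. Per the labels and the study's methods, reads had been mapped by RNA-STAR (genome mm10), tallied per RefSeq transcript by featureCounts of Subread, and compared by DESeq2 at its defaults. Their table has 1 row for each of 42361 transcripts. The signal used is the authors' mean over 6 libraries of counts divided by size factors. The other columns hold the authors' own comparison of the groups, namely fold changes, their errors, test statistics and p-values, and were not used. A count model had been planned in case the table held counts for each library. It holds no such columns, so no groups were tested.

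Transcripts were matched to genes with RefSeq GRCm38.p6, which placed 42203 and left out 158. Lengths and exons came from GENCODE M21 transcripts paired with each accession, available for 98.1% of genes with a mean of at least 10. Counts had been made on RefSeq transcripts, whose lengths can differ from those of their GENCODE counterparts. Both *Mdm2* transcripts, for example, were paired with the same GENCODE transcript of 3099 bases. Per-kb levels used the highest transcript with a length. Percentiles count genes with a mean of at least 10. Counting intervals (95%, exact Poisson) treat 6 times the mean as reads. Promoter and size factor searches were tested on simulated data. Members and lists were chosen with earlier results of these data known. All members were named, with up to 3 of the highest and lowest other genes of each role by level per kb. Python 3.11.15, numpy 2.4.6, pandas 2.3.3, scipy 1.17.1 and matplotlib 3.10.9 were used.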

Additional observations from a re-analysis of the deposited data

How the results depend on the processing

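No paired analysis was possible because the values analysed are a mean over all 6 libraries, and for the same reason leaving out each replicate was not run. Summing the transcripts of each gene, which counts shared reads repeatedly, moved the median member from 3818 to 9079 normalized counts, while the median over transcripts left it within the counting interval. With coding length in place of transcript length the median member moved from 1016 to 3278 per kb, and with the short form of *Aen*, an alternative chosen after seeing the data, to 1532. The median percentile of the members was 85.2 among genes with at least 1 read, 79.9 among genes with a mean of at least 10, 83.0 among protein-coding genes and 72.1 per kb. Of the other choices, the number of members above the median gene was 8 to 10, and 50 to 52 pathway genes were found at minimum means of 1, 10 and 50. Depth did not limit detection of any member. The choice of length and the unknown spread between libraries both limit statements of order and of ratios between genes.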
